A study of Homo sapiens with 5 samples.

Results

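The WNT ligands, their receptors, their inhibitors and the transcription factors at the end of the pathway were followed in IMR32, an established human neuroblastoma cell line, during knockdown of the homeobox gene MEIS1. A gene was included when a probe set (a group of short probes for 1 transcript) was annotated to a symbol made of WNT, FZD, SFRP or DKK and a number, with or without a closing letter, or to LRP5, LRP6, APCDD1, AXIN2, LEF1, TCF7, TCF7L1, TCF7L2, WIF1, NKD1, ROR1 or ROR2. This gave 45 genes with 99 probe sets, out of 19775 genes on the array, and each gene was followed through its brightest probe set. The cells carried a stably integrated hairpin RNA against the MEIS1b isoform that doxycycline switches on. The labels do not say whether the line was a single clone or a pool. RNA was read on 5 Affymetrix U133 Plus 2.0 arrays, 1 for each time point: 0 h without doxycycline, then 24, 48, 96 and 192 h with it. Cells on all 5 arrays carried the hairpin construct and grew in medium with fetal calf serum. Neither doxycycline-treated cells without the hairpin nor uninduced cells of later times were analysed here, so the hairpin, doxycycline and time in culture cannot be told apart.

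WNT proteins are secreted lipid-modified ligands that bind Frizzled (FZD) receptors together with the co-receptors LRP5 and LRP6. Binding stops the breakdown of beta-catenin, which then joins TCF and LEF factors on DNA. Other WNT signals run through Frizzled or through the receptor kinases ROR1 and ROR2 without beta-catenin, and steer cell polarity and movement. In the embryo WNT signals take part in forming the neural crest, the tissue from which sympathetic neurons and neuroblastoma derive.

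Values are MAS5 signals, the arbitrary brightness units of Affymetrix software, and a probe set's signal is compared only with itself across arrays. The test was a straight line through the 5 arrays in equal steps, fitted with limma on log2(signal + 4.7), and its fitted change is the log2 difference between 192 h and 0 h on that line, given with its standard error (SE). The words rose and fell are kept for a Benjamini-Hochberg adjusted p under 0.05 over all 11944 genes with a mean signal of at least 17.9. There was 1 array per time point, so the p-values measure scatter around a line and a difference between any pair of arrays has no replicate check.

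The upstream sequences of 4 of these genes are shown, because 3 of them (APCDD1, TCF7L1 and TCF7L2) fell over the course and the other, DKK1, was the 1 tested WNT gene whose upstream window held a TCF/LEF word. That of SFRP1, which rose, is not shown. Each sequence is the 250 bases before the annotated start in RefSeq (GRCh38.p14, plus strand), 5′ to 3′, and capitals mark matches to the words below.
APCDD1, chr18:10454385-10454634: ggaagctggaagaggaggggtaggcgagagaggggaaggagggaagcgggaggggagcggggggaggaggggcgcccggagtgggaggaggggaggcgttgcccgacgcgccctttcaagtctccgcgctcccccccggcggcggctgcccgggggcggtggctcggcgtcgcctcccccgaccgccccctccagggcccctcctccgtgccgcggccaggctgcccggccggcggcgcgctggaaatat
TCF7L1, chr2:85133142-85133391: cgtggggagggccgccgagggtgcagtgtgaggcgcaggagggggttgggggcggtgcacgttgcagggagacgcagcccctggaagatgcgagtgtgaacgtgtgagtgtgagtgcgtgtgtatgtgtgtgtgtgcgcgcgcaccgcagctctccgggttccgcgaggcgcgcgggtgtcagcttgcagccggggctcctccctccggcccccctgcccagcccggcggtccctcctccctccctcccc
TCF7L2, chr10:112949997-112950246: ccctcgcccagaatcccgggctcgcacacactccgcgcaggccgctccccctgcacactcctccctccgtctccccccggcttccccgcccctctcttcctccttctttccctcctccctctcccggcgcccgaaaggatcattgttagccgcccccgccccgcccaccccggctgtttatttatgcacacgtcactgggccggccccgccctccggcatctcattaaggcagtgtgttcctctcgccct
DKK1, chr10:52314031-52314280: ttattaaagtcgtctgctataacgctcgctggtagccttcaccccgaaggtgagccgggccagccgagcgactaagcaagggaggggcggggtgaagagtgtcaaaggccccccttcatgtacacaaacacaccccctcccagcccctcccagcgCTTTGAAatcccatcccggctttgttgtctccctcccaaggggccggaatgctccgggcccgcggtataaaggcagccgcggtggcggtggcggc
Both strands were searched for CTTTGAT or CTTTGAA, the core bound by TCF and LEF factors, and for TGACAG, the core bound by MEIS proteins, and these words do not overlap one another. The table held windows for 30 of the 45 genes, 15 of them tested. The TCF/LEF word stood in 1 of the 30 windows, that of DKK1, 95 to 89 bases before the start on the gene's own strand, against 5.94% of all 35116 windows. Among tested genes it stood in 1 of 15 WNT windows, against 3.43% of 9760. The MEIS word stood in 2 of the 30, those of ROR1 and WNT16, against 13% of all windows, and in 1 of the 15 tested (ROR1), against 10.4%. The WNT counts and the shares of tested genes keep 1 window per gene. The shares of all windows were not limited to 1 per gene or to genes on the array. Neither word was in the windows of APCDD1, TCF7L1 or TCF7L2, which were rich in G and C (77.2%, 72% and 68%). These matches describe letters only.

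Across the series, array medians of all probe sets ran from 16 to 19 signal units. The 24 h array had the lowest median and the largest share of probe sets at the floor of 1 (8.15%). MEIS1, the targeted gene, read 1052, 851.5, 847.2, 857 and 786.6 at 0, 24, 48, 96 and 192 h in its brighter probe set, lower on all 4 induced arrays. At 192 h it stood at 74.9% of its 0 h signal. The trend did not pass (fitted change -0.33 ± 0.14, SE; limma adjusted p = 0.251). The 24 poly-A spike-in probe sets, RNA added before labelling, averaged 0.10 higher at 24 h and 0.45, 0.61 and 0.25 lower at 48, 96 and 192 h than at 0 h on the log2 scale. Of 12 markers of adrenergic neuroblastoma cells 9 were above the minimum, and 2 of these (DDC and GATA2) rose. Their list's summed signal was 10203, 10241, 11014, 13200 and 11449 at 0, 24, 48, 96 and 192 h. Of 12 mesenchymal and fibroblast markers 8 were tested and 1 (PDGFRA) fell. That list's summed signal was 5606, 6165, 5988, 5286 and 4309 at the same times. Both sums mostly reflect their brightest genes. At 0 h MYCN read 4248.1 and GATA3 2793.1 in the adrenergic list, and VIM 2957 and TWIST1 1336 in the mesenchymal list. Over all tested genes 2.02% rose and 1.46% fell. The part of either list in the WNT gene results was not tested. Epithelial, Schwann, blood and endothelial cell markers were dim: summed signals ran from 80.6 to 108.1 for epithelial, 29.1 to 52.8 for Schwann and 40.5 to 86.9 for blood and endothelial lists, and none of the tested ones (3, 1 and 1) passed.

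Of the 45 WNT genes, 24 passed the signal minimum and 21 did not. SFRP1 rose, and APCDD1, TCF7L1 and TCF7L2 fell. The other 20 tested genes did not pass. The background was 2.02% of all tested genes that rose and 1.46% that fell, or 3.47% in either direction. Called genes thus made up 4 of 24 tested WNT genes, a count that leaves out the 21 dim ones. The median fitted log2 change of the 24 was -0.07, against 0.003 over all 11944 tested genes, so the group as a whole showed no shared direction in this summary: 13 had a negative and 11 a positive value. A lower or higher bulk signal can come from fewer or more cells of a type or from less or more RNA per cell, and these cannot be told apart.

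**Figure D1:**
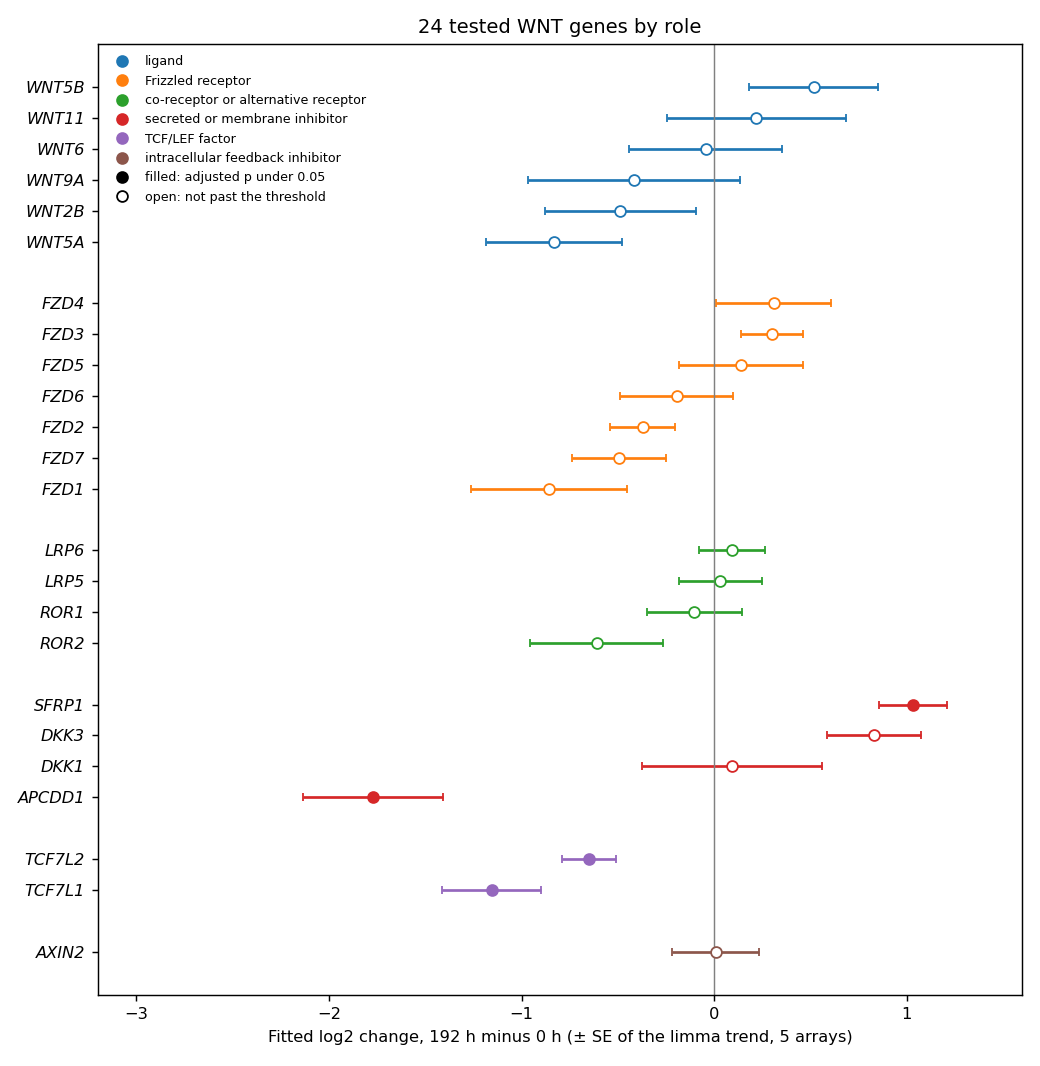
Fitted log2 change from 0 h to 192 h (x axis; bars, SE of the limma trend over 5 arrays) for the 24 tested WNT genes, coloured by role; filled points have an adjusted p under 0.05. The 4 filled points are SFRP1 at 1.03, TCF7L2 at -0.65, TCF7L1 at -1.16 and APCDD1 at -1.77, while ligands, receptors and co-receptors are all open.

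The pathway's ligands were mostly dim. Of 17 ligand genes 6 passed the minimum, and none of the 6 passed the trend test. WNT5A, which signals mainly without beta-catenin and binds ROR1 and ROR2, read 91.9, 65.1, 97.4, 74.5 and 39.4 at 0, 24, 48, 96 and 192 h. It was lowest at 192 h, 2.19-fold below 0 h on the scale with the offset, but the 48 h array was above 0 h. Its fitted change was -0.83 ± 0.35 (SE; limma adjusted p = 0.254). The second WNT5A probe set read 82.8, 75.9, 68.3, 55.1 and 51.9 at the same times, lower at every step. WNT5A passed only when the fit also held the level of the RNA spike-in controls described above (-1.56, limma adjusted p = 0.0363), 1 of 16 alternative settings, and its fitted change was -0.12 without the 192 h array.

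WNT11, another ligand that acts largely without beta-catenin, read 47.3, 18.1, 34, 39.4 and 40.5. Only the 24 h array stood apart, 2.28-fold lower than 0 h, and the 3 later arrays lay between the values at 24 h and 0 h. That 24 h value, from the gene's only probe set, was close to the minimum of 17.9 and came from the array with the lowest median. The fitted change of WNT11 was 0.22 (limma adjusted p = 0.883), a line that misses a low value on 1 array. WNT5B, a close relative of WNT5A, read 33.7, 39.5, 61.9, 45.1 and 51.9, above 0 h on all 4 induced arrays, with a fitted change of 0.52 (adjusted p = 0.488), or 0.26 with the 0 h array left out. Its second probe set also read higher at 24, 48 and 192 h, and lower at 96 h (18.9 against 21.8 at 0 h). The fitted change was -0.49 for WNT2B, -0.42 for WNT9A and -0.04 for WNT6, none of which passed, and leaving out single arrays moved that of WNT2B between -0.64 and -0.28.

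Among 9 Frizzled receptors 7 passed the minimum, and their fitted changes pointed both ways without any passing the trend test. FZD2, a receptor of this family, read 826, 713.3, 735.2, 794.2 and 565.9, so that the 192 h array was the lowest and the 96 h array was close to 0 h (fitted change -0.37 ± 0.17, adjusted p = 0.285). Leaving out the 192 h array gave -0.050. The second FZD2 probe set took another course, 217.5, 158.2, 253.8, 206.3 and 182.1. It was lowest at 24 h and above 0 h at 48 h, with a fitted change of -0.051. FZD3, which in mice is required for the growth of major axon tracts, read 388.5, 417.7, 371.9, 493.8 and 465. The 2 last arrays were the highest of the 5. All 4 FZD3 probe sets had a positive fitted change, between 0.23 and 0.80, and that of the brightest was 0.30 ± 0.16 (adjusted p = 0.375).

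FZD7 was lower on all 4 induced arrays: it read 152.4 at 0 h and 96.4, 102.7, 105.4 and 93.4 later. The difference was present at 24 h and the later arrays stayed within a narrow range (fitted change -0.49 ± 0.24, adjusted p = 0.331). Leaving out the 0 h array gave a fitted change of -0.038, so the value rests on that array. The second FZD7 probe set was lower than 0 h at all 4 induced times too, with 81.7 at 0 h and 60.9, 75.9, 61.7 and 55.9 later. FZD1 read 62.1, 56.4, 52.3, 22.6 and 42.8. Its 96 h array alone was more than 2-fold below 0 h (2.45-fold), and its fitted change was -0.86 ± 0.41 (adjusted p = 0.309), which became -0.49 with the 96 h array left out and -1.59 with the 192 h array left out. FZD6 was lower than 0 h on every induced array, by the most at 24 h (78.8, against 134.8 at 0 h), with a fitted change of -0.20. FZD4 read higher than at 0 h on every induced array (51.9 at 192 h, against 38.1 at 0 h; fitted change 0.31), but with the 0 h array left out its fitted change was 0.0069. FZD5 had a fitted change of 0.14.

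The co-receptors of the beta-catenin branch had small fitted changes in their brightest probe sets. LRP5 read 97.1, 102.1, 90.4, 96.2 and 103 (fitted change 0.03 ± 0.22), and LRP6 read 302, 277.8, 276.8, 265.1 and 335.5 (0.09 ± 0.17). Both had all 4 induced arrays within 1.14-fold of 0 h. Setting array medians equal gave negative fitted values for LRP5 and LRP6, so neither has a stable direction in its brightest probe set. All 3 LRP6 probe sets above the minimum had a positive fitted change, from 0.09 to 1.01. The largest was that of the dimmest, which read 14.5, 9.4, 21.8, 23 and 28.3. ROR2, a receptor kinase for WNT5A, read 53.3, 38.5, 42.1, 27.3 and 35, lower than 0 h on every induced array (fitted change -0.61 ± 0.35, adjusted p = 0.413). Leaving out the 0 h array gave -0.37, and leaving out the 192 h array gave -0.98. Its relative ROR1 read 69.3, 80, 71.8, 74.3 and 65.4 in its brightest probe set, with a fitted change of -0.10. There the 192 h array alone was below 0 h. Further ROR1 probe sets above the minimum read 57.3, 59.5, 60, 43.2 and 46.8, and 29.8, 8.8, 32.2, 19.2 and 18.8. Both were below 0 h at 96 and 192 h. All 3 had a negative fitted change, from -0.38 to -0.10.

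Among the 10 secreted and membrane inhibitors 4 were tested, of which 1 rose, 1 fell and 2 did not pass. Over all tested genes 2.02% rose and 1.46% fell. SFRP1, a secreted Frizzled-related protein that binds WNTs outside the cell, read 151.4, 217.8, 225.3, 256.2 and 347.7 at 0, 24, 48, 96 and 192 h. It was higher than the array before at all 4 steps and 2.26-fold above 0 h at 192 h. Its fitted change was 1.03 ± 0.18 (SE; limma adjusted p = 0.00768). The second SFRP1 probe set above the minimum read 32.1, 36.6, 34.2, 47.5 and 58.3, above 0 h on every induced array.

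APCDD1, a membrane glycoprotein that binds WNT and LRP5 and restrains the signal, showed the reverse. It read 56.2, 46.4, 37.7, 24.8 and 12.6, lower at each of the 4 steps, and at 192 h it was 3.52-fold below 0 h and under the signal minimum of 17.9. Its fitted change was -1.77 ± 0.36 (adjusted p = 0.0200). The size depends on the offset for so dim a signal: it was -1.996 with an offset 4 times smaller and -1.24 with one 4 times larger. APCDD1 had a single probe set above the minimum.

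SFRP1 no longer passed when the 0 h array (limma adjusted p = 0.124) or the 192 h array (0.0890) was left out. APCDD1 no longer passed when the 0 h (0.110), 24 h (0.0556) or 192 h array (0.151) was left out, nor when spike-in level was added to the fit (0.0549). Without the signal minimum, or with a single prior variance for all genes, neither passed (0.0900 and 0.0902 for SFRP1, 0.168 and 0.0529 for APCDD1). The signs stayed the same in all 16 alternatives for SFRP1 and in all 15 that could be run for APCDD1, which a minimum 2 times higher removes.

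**Figure D2:**
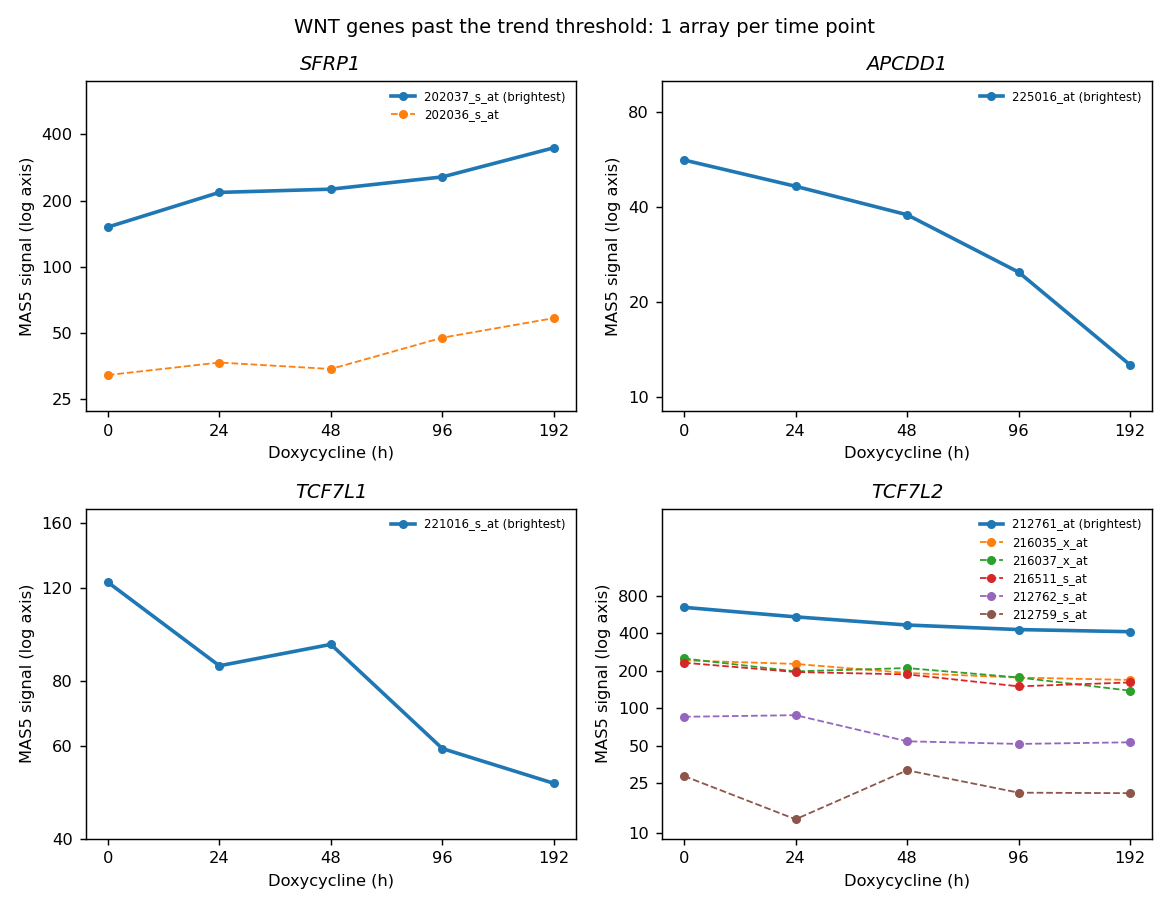
MAS5 signal (log axis) against hours of doxycycline (equal steps, not to scale) for SFRP1, APCDD1, TCF7L1 and TCF7L2, 1 array per point; lines are the probe sets above the signal minimum, the thick line being the brightest. SFRP1 reads highest at 192 h (347.7, against 151.4 at 0 h), and APCDD1, TCF7L1 and TCF7L2 read lowest at 192 h in their brightest probe set.

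DKK1, a secreted protein that blocks LRP5 and LRP6, had a course that no line describes. It read 43, 107.1, 101.4, 86.7 and 52.4, so that the first 2 induced arrays were 2.34-fold and 2.22-fold above 0 h and the later ones came back toward it. The fitted change was 0.09 ± 0.47 (adjusted p = 0.957), and its sign hung on single arrays: leaving out the 0 h array gave -1.25 and leaving out the 192 h array gave 1.10. DKK1 was the only 1 of the 24 tested WNT genes at least 2-fold higher at 24 h and at 48 h, where 0.678% and 1.08% of all tested genes were. DKK3, another member of the Dickkopf family, read 78.6, 102.5, 96.4, 157.1 and 134.6, above 0 h on every induced array (fitted change 0.83 ± 0.24, adjusted p = 0.0896). Its probe sets disagreed, with fitted changes from -0.41 to 0.95 over 3 above the minimum.

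Both tested TCF/LEF factors fell, against 1.46% of all tested genes. TCF7L1, which acts mainly as a repressor of WNT target genes in the absence of a signal, read 123.2, 85.4, 93.8, 59.4 and 51 at 0, 24, 48, 96 and 192 h. All 4 induced arrays were below 0 h, the 2 late ones below the 2 early ones, and the 192 h array was 2.30-fold lower than 0 h. The fitted change was -1.16 ± 0.26 (SE; limma adjusted p = 0.0291), from the gene's only probe set.

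TCF7L2, the factor that pairs with beta-catenin in many tissues, read 647.2, 542.8, 466.9, 429.2 and 412.6. It was lower at each of the 4 steps, but the change was smaller, 1.56-fold at 192 h (fitted change -0.65 ± 0.14, adjusted p = 0.0245). All 6 TCF7L2 probe sets above the minimum had a negative fitted change, from -0.79 to -0.09. They need not detect the same transcripts, and 2 of them carry the suffix that Affymetrix gives to probes that can bind other transcripts.

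At each of the 4 steps 2 of the 24 tested WNT genes (APCDD1 and TCF7L2) were lower, against 2.18% of all tested genes, and 1 (SFRP1) was higher, against 2.33%. TCF7L1 no longer passed when the 0 h (limma adjusted p = 0.262), 96 h (0.0684) or 192 h array (0.117) was left out, with spike-in level in the fit (0.0747), or on a scale of hours (0.0531). TCF7L2 no longer passed in those 5 settings either (0.304, 0.0664, 0.0519, 0.139 and 0.121), nor when all its probe sets were averaged (0.102). As with SFRP1 and APCDD1, neither passed without the signal minimum (0.168 for TCF7L1, 0.116 for TCF7L2) or with a single prior (0.0908 for TCF7L1, 0.144 for TCF7L2).

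AXIN2, a scaffold of beta-catenin breakdown that beta-catenin itself induces and that is widely used as a readout of the pathway, read 136.4, 135.9, 117.7, 165.1 and 124.5. The 4 induced arrays lay on both sides of 0 h, and the fitted change was 0.007 ± 0.23 (adjusted p = 0.992). The other probe set above the minimum was more than 2-fold lower at 48 h (15.1, against 35.4 at 0 h) and near 0 h at 192 h (41.7). NKD1, which like AXIN2 is a feedback inhibitor, was too dim to test, with a mean signal of 15.2 just under the minimum. WNT9A, at 19.2, lay just above it.

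Each induced array was also set against 0 h without a test, counting genes at least 2-fold apart. At 24 h 2 of the 24 tested WNT genes were past this fold, DKK1 higher and WNT11 lower, against 1.62% of all tested genes (0.678% higher, 0.946% lower). At 48 h 1 was (DKK1, higher), against 1.73% (1.08% higher, 0.653% lower). At 96 h 2 were (APCDD1 and FZD1, both lower), against 3.38% (2.2% higher, 1.18% lower). TCF7L1, 1.995-fold lower at 96 h, lay just short of it. At 192 h 4 were, SFRP1 higher and APCDD1, TCF7L1 and WNT5A lower, against 4.24% (2.3% higher, 1.93% lower). Over any induced array 7 of 24 were past it, against 7.32%. DKK1, still 1.92-fold higher at 96 h, also lay just short of the fold there.

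**Figure D3:**
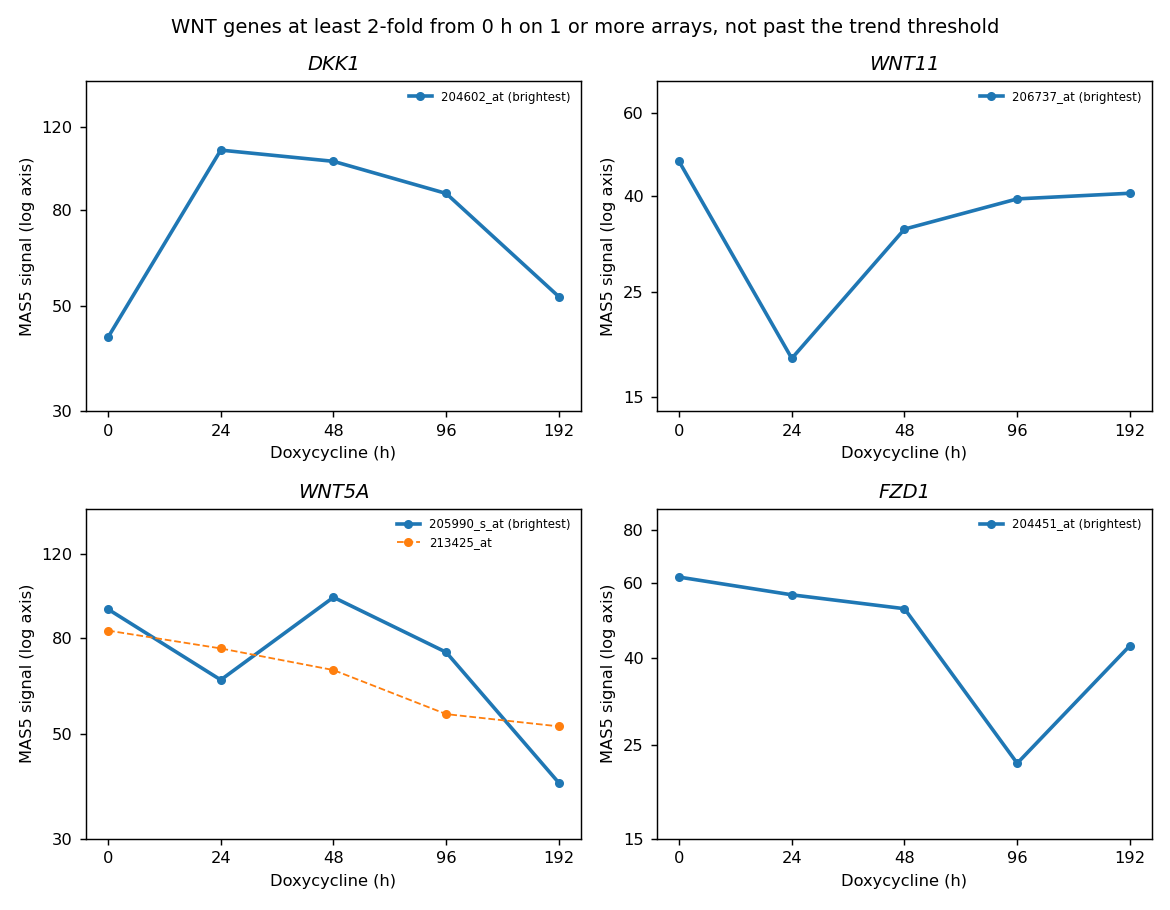
MAS5 signal (log axis) against hours of doxycycline (equal steps, not to scale) for the 4 WNT genes that were at least 2-fold from 0 h on 1 or more arrays without passing the trend test; lines are the probe sets above the minimum. DKK1 peaks at 107.1 at 24 h, WNT11 dips to 18.1 at 24 h, FZD1 dips to 22.6 at 96 h, and WNT5A is lowest at 192 h (39.4).

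The 21 WNT genes under the minimum were 11 ligands, FZD9, FZD10, the inhibitors SFRP2, SFRP4, SFRP5, DKK2, DKK4 and WIF1, the factor LEF1, and NKD1. Their mean signals ran from 1.86 to 15.2, and 8 of them were at the floor of 1 on at least 1 array. LEF1, the lymphoid relative of the TCF7L factors, read between 3.1 and 9.3. On at least 1 array 5 of the 21 exceeded the minimum: FZD9, NKD1, WNT7B, WNT10B and WNT16. No fitted change is given for the 21. For 11 of the 24 tested genes more than 1 probe set passed the minimum, and in 9 of these the fitted changes had one sign. The exceptions were AXIN2 and DKK3.

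The other genes of the pathway were taken from 4 lists. Of 113 listed genes 76 were tested, 7 rose and 4 fell, with a median fitted log2 change of 0.05. The background was the same 2.02% and 1.46% of all tested genes. The ligand-handling and surface list had 0 rising and 3 falling of 12 tested genes (median -0.46). WLS, which carries WNT proteins to the cell surface, read 1036.4 at 0 h and 870.6, 869, 697.4 and 518.8 later (fitted change -0.92 ± 0.15, limma adjusted p = 0.00598). LGR4, a receptor for R-spondins, which strengthen WNT signals, read 243.2 at 0 h and 209.6, 159.9, 130.5 and 106.3 later (-1.19 ± 0.17, adjusted p = 0.00352). LGR4 kept passing without each array in turn (adjusted p 0.00516 to 0.0427), and WLS did so except without the 192 h array (0.0756). Like the WNT genes, neither passed without the signal minimum (0.0516 for LGR4, 0.0957 for WLS) or with a single prior (0.0517 for LGR4, 0.103 for WLS). The third was DRAXIN, a secreted axon guidance protein, named here after its values were seen (-0.86, adjusted p = 0.0464).

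Of 32 tested cytoplasmic and nuclear genes 1 rose and 1 fell (median 0.16). TNIK, a kinase that binds TCF7L2 and beta-catenin, rose by a fitted 1.17 ± 0.20, with 401.5 at 192 h against 195.1 at 0 h. DACT1, which binds the adaptor Dishevelled, fell by 1.04 on the log2 scale, with 101.8 at 192 h against 227.3 at 0 h. Its fitted change was -0.47 without the 192 h array, and its call was lost in 4 of 16 alternatives and that of TNIK in 5. Of 19 tested genes of planar polarity and beta-catenin-independent signalling 3 rose and 0 fell (median 0.10): the kinase gene PRKCA (0.88), the formin gene DAAM1 (0.76), which links Dishevelled to the actin skeleton, and the polarity cadherin gene CELSR3 (0.59). The calls of DAAM1 and CELSR3 were lost in 10 and 11 of 16 alternatives, and that of PRKCA in 6, the setting of equal array medians among them for all 3.

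Of 13 tested genes reported elsewhere as beta-catenin targets 3 rose and 0 fell (median -0.01). BAMBI, a decoy receptor for TGF-beta family ligands, rose by a fitted 1.92 ± 0.15, SOX9, a neural crest and glial factor, by 1.70 ± 0.32, and ID2, an inhibitor of basic helix-loop-helix factors, by 0.86 ± 0.18. BAMBI passed in all 16 alternatives, SOX9 in 13 and ID2 in 8.

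**Figure D4:**
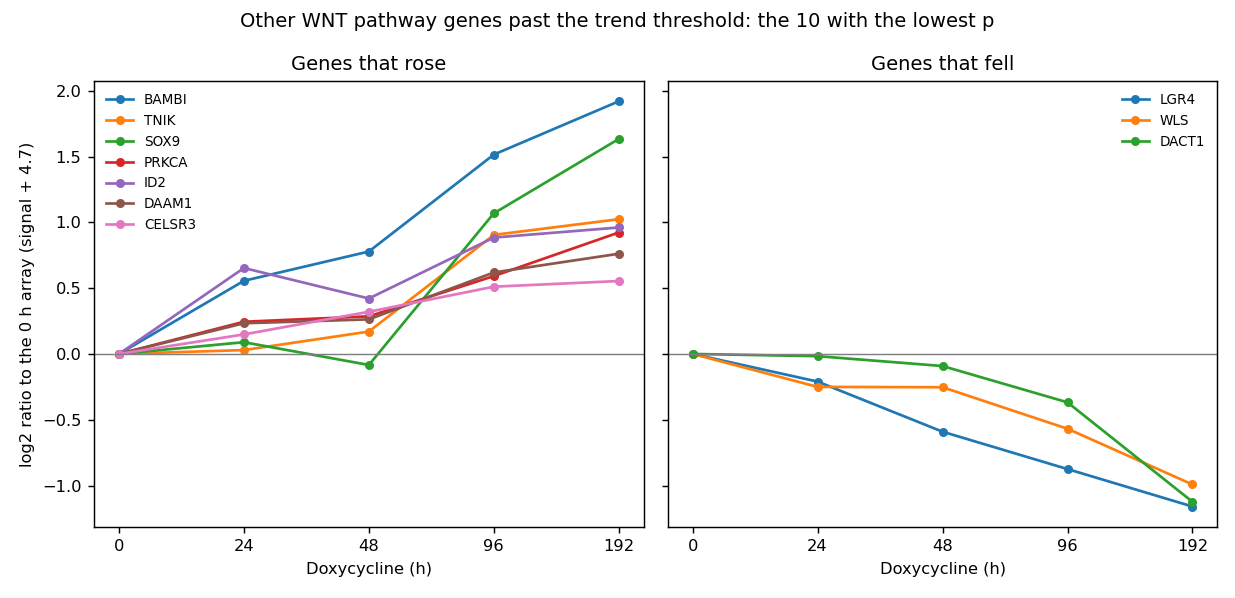
Log2 ratio to the 0 h array (signal + 4.7) against hours of doxycycline (equal steps, not to scale) for the 10 other WNT pathway genes with the lowest trend p, 1 array per point. BAMBI reaches 1.92 at 192 h and LGR4 -1.16, and SOX9 lies near 0 until 48 h.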

How the data were processed

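Per the labels' protocols, total RNA of IMR32 cells was isolated with Trizol and RNeasy and hybridised to U133 Plus 2.0 arrays. Per the submitters' processing notes, MAS5 and GCOS were used, with versions and scaling target not given in the sources used here. The deposited values were taken to be log2 MAS5 signals, since 2 to that power was a multiple of 0.1 (within 0.01) for 100% of them, with a floor at 1; the mean trimmed by 2% at each end was 100.0 on every array, so no scaling was added. The number of arrays, 1 per time point, limits precision.

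Signals had 4.7 added (median over arrays of the 25th percentile) before log2, which understates changes of dim genes. Probe sets named for 1 gene in GEO's platform annotation were used (41091 of 54675; symbols through RefSeq, GRCh38.p14); 6 probe sets shared by a WNT gene and another gene were left out, and WNT3, WNT3A, FZD8 and TCF7 were not analysed here. Genes needed a mean signal of 17.9, the median of all signals. The trend was fitted with limma 3.58.1 in R 4.3.3 (eBayes with trend, two-sided, residual degrees of freedom 3, prior 9.07), with Benjamini-Hochberg over 11944 genes. It was also run on simulated data with independent noise on each array, which cannot show effects shared by all genes of an array. All 24 tested WNT genes are named. From the other pathway lists the 10 called genes with the lowest p are named, and DRAXIN was added after its values were seen. No alternatives are given for DRAXIN. The WNT genes, lists, tests and alternatives were chosen with earlier results of these data known.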

Additional observations from a re-analysis of the deposited data

How the results depend on the processing

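In all, 16 alternatives were run. No paired analysis was possible because each time point is 1 array and the labels give no replicate numbers. Without the signal minimum (19775 genes tested) 16 genes rose and 5 fell, and 0 WNT genes rose or fell; of the other WNT pathway genes 1 rose and 0 fell. With one eBayes prior for all genes 14 rose and 8 fell, 0 WNT genes passed in either direction, and of the other pathway genes 1 rose and 0 fell; the cause was not tested. So the WNT calls held neither without the minimum nor with one prior, though the SE of APCDD1 was smaller with one prior (0.23, against 0.36). With the spike-in covariate 118 genes rose and 112 fell. The 1 WNT gene that fell there was WNT5A, which did not pass in the main fit, and SFRP1 still rose. On a scale of hours 1 WNT gene fell, APCDD1, and SFRP1 still rose. Setting array medians equal shifted the median of all genes by 0.15 at 24 h (log2); 193 genes then rose and 252 fell, so 43.4% of calls were rises against 58.1%, and 4 other pathway genes rose. With probe sets averaged 3 of those rose. With an offset 4 times larger 1, 0 and 0 WNT genes were past 2-fold at 24, 48 and 96 h, and with a minimum 2 times higher 1 was at 96 h.

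Leaving out each array in turn (fitted changes still given over all 4 steps), 0 to 1 WNT genes rose and 0 to 3 fell (both 0 without the 0 h or the 192 h array; 1 fell without the 96 h array), 121 to 249 of all genes rose and 69 to 167 fell, and 1 to 7 other pathway genes rose and 1 to 4 fell, with 1 and 1 without the 192 h array. MEIS1 ranged from -0.40 to -0.13 and never passed.

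Signs turned only in genes that did not pass. AXIN2 had -0.10 with equal medians, -0.016 with quantile normalization, -0.12 with the spike-in covariate, -0.031 on hours and -0.074 with probe sets averaged. DKK1 had -0.015, -0.23 and -0.28 with equal medians, the covariate and hours, LRP5 -0.075 with equal medians and -0.0030 with quantiles, LRP6 -0.017 with equal medians, and WNT11 -0.16 with the covariate. Leaving out arrays, the ranges were -0.15 to 0.24 for AXIN2, -1.25 to 1.10 for DKK1, -0.14 to 0.43 for FZD5, -0.44 to 0.32 for FZD6, -0.082 to 0.072 for LRP5, -0.22 to 0.30 for LRP6, -0.31 to 0.054 for ROR1, -0.19 to 1.26 for WNT11, -0.29 to 0.38 for WNT6 and -0.75 to 0.65 for WNT9A. Of 540 values of single genes under the alternatives 439 kept sign and side of the threshold, 77 lost the call, 1 gained it and 23 changed sign. Low signal over background limits the 21 dim WNT genes.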

Other observations

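The signals of 4 dim WNT genes are given here as values only. WNT7B, a ligand of neural and epithelial tissue, had signals of 4.5, 23.4, 23.8, 14.5 and 9.2 over the 5 arrays in order of time. In this brightest probe set it was highest at the same early times as DKK1. The other WNT7B probe set read 1.3, 1, 6.3, 2.5 and 2.4, not higher at 24 h than at 0 h. WNT10B read 5.3, 10.9, 17.3, 13.3 and 20.5, above its 0 h value on all 4 induced arrays. A second NKD1 probe set read 19.6, 13.5, 6.6, 2.1 and 3.9, while the brightest read 27.3, 4.3, 10.9, 25.1 and 8.3, so the NKD1 probe sets differ in course at 96 h. FZD9 read 18.3 at 0 h, between 1.8 and 5.4 at the 3 middle times and 17.6 at 192 h. None of these genes met the signal minimum, and they were chosen after their values were seen.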
